A study of Mus musculus with 8 samples.

Results

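The clustered protocadherins are cell-surface adhesion proteins of the cadherin superfamily, encoded in 3 neighbouring gene clusters called Pcdha, Pcdhb and Pcdhg. The genes described here were chosen by symbol, as every gene of the expression table that carries the name of a Pcdha, Pcdhb or Pcdhg member. This gave 48 of the 18605 genes in the table, 5 of the Pcdha cluster, 21 of the Pcdhb cluster and 22 of the Pcdhg cluster, where the RefSeq annotation of GRCm38.p6 holds 14, 22 and 22. The RNA came from C3H10T1/2, a line of mouse mesenchymal stem cells from a C3H embryo, and was sequenced in 4 groups of 2 libraries. NC cells carried a non-target control and KD-Nap1l2 cells carried an shRNA against Nap1l2, delivered by lentivirus, and both were cultured in DMEM with fetal bovine serum. The groups NC-7d and KD-Nap1l2-7d were the same kinds of cells after 7 days in osteogenic medium, which contained dexamethasone, ascorbic acid and β-glycerol phosphate. The family was picked out with earlier results of these same comparisons known, so the counts of members that follow describe it and are not independent evidence of a direction. Nothing in the sources used here says whether the 2 libraries of a group came from separate cultures, so the p-values measure the spread between libraries, which may be technical.

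In the Pcdha and Pcdhg clusters, each gene has its own promoter and a large variable exon that is spliced to constant exons shared by the whole cluster, whereas a Pcdhb gene is a single exon with no shared constant part. The variable exon encodes the extracellular cadherin repeats, which bind the same isoform on a neighbouring cell, and the constant exons encode a common cytoplasmic tail. In neurons each cell uses a small set of these promoters, with CTCF and cohesin looping promoters to distant enhancers and DNA methylation silencing the rest, and the resulting surface code lets the processes of one neuron recognise and avoid each other. The C-type genes at the end of the Pcdha and Pcdhg clusters are chosen by other rules and are used more evenly among cells.

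All members lie on chromosome 18 of GRCm38.p6, with Pcdha members between positions 36930285 and 37188897, Pcdhb members between 37264998 and 37521419, and Pcdhg members between 37661775 and 37841873. The deposited counts are estimates that divide reads shared by several transcripts, so how much of a transcript is its own matters for single members. In GENCODE vM21 transcripts, a median of 99.8% of the 100-base windows of a Pcdhb transcript occurred in no other clustered protocadherin, and the lowest Pcdhb value was 92.3%. For Pcdha the median was 44.9%, and for Pcdhg it was 55.9%, with a range of 36.0% to 85.6%. The 85.6% was that of Pcdhgb8 alone, whose GENCODE transcript had only 2796 bases, and the next highest was Pcdhga12 at 59.3%. In 50-base windows the median was 95.2% for Pcdhb, with a lowest value of 88.0%, 42.1% for Pcdha and 55.1% for Pcdhg. These GENCODE transcripts can differ from those that were counted. That of Pcdhb14 had 8695 bases, whereas its RefSeq gene spans only positions 37447657 to 37451094. The shares may therefore not hold for the counted transcripts. All 48 members had a count that was not whole in at least 1 library. The summed Pcdha counts were within 0.02 of a whole number in 8 of 8 libraries and the summed Pcdhg counts in 6 of 8, whereas the summed Pcdhb counts were so in 0 of 8. Single members of every cluster are therefore uncertain by an amount the files do not give, and the sum over a cluster is given beside them. The Pcdhb sum, never within 0.02 of a whole number, holds divided reads as well.

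Library totals ranged from 17420284 to 19427359 estimated counts. Nap1l2, the targeted gene, had 3 and 3 counts in NC, 2 and 7 in KD-Nap1l2, 15 and 5 in NC-7d, and 7 and 13 in KD-Nap1l2-7d, so a knockdown was not detectable at this depth and the groups are named by their labels. The paper itself reports the knockdown in C3H10T1/2 cells from western blots and qPCR. The 12 mesenchymal markers, led by Vim, summed to 7765 to 8883 FPKM (fragments scaled to transcript length and library size) in NC, 6815 to 8700 FPKM in KD-Nap1l2, 5182 to 5772 FPKM in NC-7d and 4449 to 5732 FPKM in KD-Nap1l2-7d, although the defining marker Nt5e was at 0.02 FPKM on average. Of 12 neuron markers, 10 averaged under 1 FPKM and 1 was not in the table, and Map2 held most of their sum of 11.4 to 18.6 FPKM. All 8 epithelial and all 8 endothelial markers averaged under 1 FPKM. Among haematopoietic markers Cd68 led a sum of 3.06 to 9.41 FPKM. The glia list, led by Slc1a3, which many other cell types also express, summed to 114 to 119 FPKM in NC, 73.0 to 147 FPKM in KD-Nap1l2, 41.6 to 70.1 FPKM in NC-7d and 29.7 to 38.1 FPKM in KD-Nap1l2-7d. The mesenchymal and glia sums were thus lower in the 7-day group of each kind of cell, and their part in the protocadherin values was not tested. In such bulk RNA, fewer cells that use a gene and less RNA per cell cannot be told apart.

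Pcdhgc3, the first of the 3 C-type genes of Pcdhg, was the most abundant member. It averaged 189 FPKM and ranked 352 among all 18605 genes, and it made up 70.9% to 76.1% of the summed Pcdhg FPKM in the 8 libraries. The next members by length-scaled level were Pcdhgb7 at 19.9 FPKM, Pcdhga1 at 15.8 FPKM and Pcdhga6 at 12.4 FPKM, which together held 64.4% to 77.6% of the Pcdhg FPKM outside Pcdhgc3. The other C-type members were low, with Pcdhgc5 at 2.78 FPKM, Pcdhgc4 at 1.34 FPKM and Pcdhac2 at 1.80 FPKM. Pcdhac2 alone held 88.8% to 100% of the Pcdha FPKM, since Pcdha9 averaged 0.113 FPKM and Pcdha5, Pcdha10 and Pcdhac1 had counts in only 1 library each. Those 3 genes, with Pcdhb3 and Pcdhb6, had too few counts to be tested, which left 43 tested members, 2 of Pcdha, 19 of Pcdhb and 22 of Pcdhg.

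**Figure D1:**
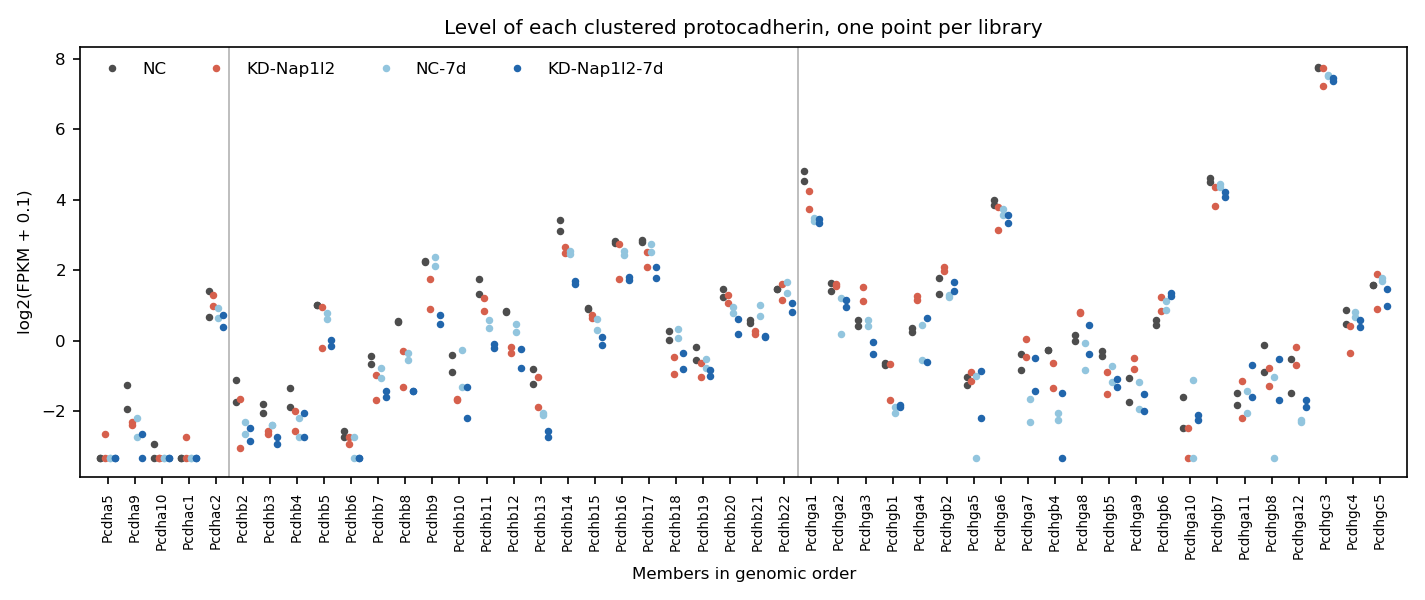
Level of every member in genomic order, on the scale log2(FPKM + 0.1), with 1 point for each of the 8 libraries coloured by group and grey lines between the clusters. Pcdhgc3 stands above all other members in every library, and 24 of the 48 members average 1 FPKM or more.

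Within the Pcdhb cluster the levels were spread over many genes. Pcdhb14 led with 6.03 FPKM, followed by Pcdhb17 at 5.44 FPKM and Pcdhb16 at 5.15 FPKM, and the median Pcdhb member was at 1.06 FPKM. The order of these leaders was not fixed, because Pcdhb14, Pcdhb16 and Pcdhb17 each ranked first in some library. The 4 highest Pcdhb members held 56.8% to 59.1% of the summed Pcdhb FPKM, and this share moved little between libraries although the sum itself moved more. An effective number of members was taken as the exponential of the Shannon entropy of their FPKM shares. It was 11.8 to 12.7 for Pcdhb and 6.90 to 9.18 for Pcdhg without Pcdhgc3, where the 2 KD-Nap1l2 libraries had the highest values.

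The summed level of the Pcdhb cluster was highest in NC and lowest in KD-Nap1l2-7d. In CPM, estimated counts scaled to library size with TMM factors, it was 180.2 and 168 in NC, 132 and 99.8 in KD-Nap1l2, 129 and 137 in NC-7d, and 73.7 and 78.0 in KD-Nap1l2-7d. As mean ± SD (n = 2 libraries), these were 174 ± 8.28, 116 ± 22.7, 133 ± 6.20 and 75.9 ± 3.07 CPM. The KD-Nap1l2 libraries overlapped those of NC-7d, and all other pairs of groups were separate. The summed Pcdhg level was less unequal, at 1418 ± 20.7 CPM in NC, 1169 ± 219 CPM in KD-Nap1l2, 1147 ± 61.2 CPM in NC-7d and 1063 ± 25.0 CPM in KD-Nap1l2-7d. Without Pcdhgc3 it was 387 ± 31.7, 310.1 ± 54.7, 276 ± 20.3 and 255 ± 3.5 CPM in the same order. The Pcdha sum was 12.6 ± 4.81, 12.4 ± 1.02, 9.37 ± 1.31 and 7.78 ± 0.965 CPM. No test was made on these sums, because the members were chosen with results of these libraries known.

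**Figure D2:**
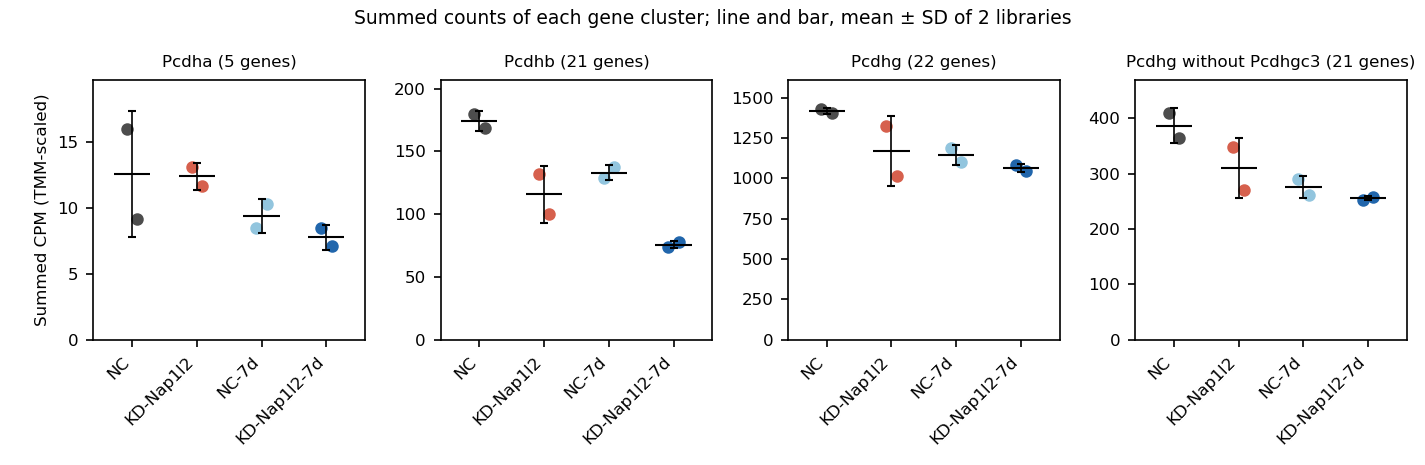
Summed CPM of each cluster, and of Pcdhg without Pcdhgc3, with 1 point per library and a black line and bar for the mean ± SD of 2 libraries; each axis starts at 0. The mean Pcdhb sum is 174 CPM in NC and 75.9 CPM in KD-Nap1l2-7d, and the 2 KD-Nap1l2 libraries lie far apart in Pcdhb and Pcdhg.

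Whether Nap1l2 shRNA changed the cluster in undifferentiated cells was asked by setting KD-Nap1l2 against NC. The Pcdhb members were lower and the Pcdhg members were mixed, but 0 of the 43 tested members were called at a Benjamini-Hochberg adjusted p-value under 0.05 in edgeR's quasi-likelihood test, where 0.0817% of all 13470 tested genes were called. At an unadjusted p-value under 0.05, 12 members were lower and 3 higher, beside 6.73% and 7.02% of all tested genes. DESeq2 called 2 members, Pcdhb14 and Pcdhga1, and 3.44% of its genes. All 19 tested Pcdhb members (Pcdhb3 and Pcdhb6 were not tested) had a fitted log2 fold change below 0, as had 48.5% of all tested genes, and their median was -0.59 beside 0.01 over all genes. In 16 of the 19, both KD-Nap1l2 libraries lay below both NC libraries, which was so for 21.2% of all tested genes. The summed Pcdhb level was 33.5% lower, a log2 ratio of -0.59 beside a spread between libraries of 0.29.

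Pcdhb14, the most abundant Pcdhb member, had 37.3 and 29.4 CPM in NC and 20.5 and 20.1 CPM in KD-Nap1l2. Both KD-Nap1l2 values were below both NC values, with a log2 fold change of -0.72 (SE 0.15, adjusted p = 0.115 by edgeR, 0.0281 by DESeq2). Pcdhb12 also had separate groups, with 5.27 and 5.05 CPM in NC and 2.27 and 2.19 CPM in KD-Nap1l2 (log2 fold change -1.23, SE 0.28, adjusted p = 0.134 by edgeR). The Pcdhb member with the lowest fitted value, Pcdhb8, went from 3.22 and 3.12 CPM to 1.62 and 0.744 CPM (log2 fold change -1.43, SE 0.39, adjusted p = 0.175 by edgeR). Pcdhb9 had 14.2 and 14.5 CPM in NC and 9.58 and 5.70 CPM in KD-Nap1l2 (log2 fold change -0.90, SE 0.26, adjusted p = 0.191 by edgeR).

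The second KD-Nap1l2 library stood apart from the first in much of the family. Pcdhb16 was at 33.7 CPM in the first and 18.4 CPM in the second, beside 37.5 and 35.6 CPM in NC, and Pcdhgc3 was at 975 and 743 CPM, beside 1024 and 1039 CPM. In the same 2 libraries, some mesenchymal markers went the other way, with Vim at 4993 and 8660 CPM and Col1a1 at 3980 and 6503 CPM. Col1a2, Col3a1, Cd44 and Itgb1 were also higher in the second library. Ly6a, at 1118 and 847 CPM, and Eng, at 67.8 and 58.7 CPM, were lower in the second library. The part of these differences in the protocadherin values was not tested. Without the first KD-Nap1l2 library, edgeR called 4 members lower, Pcdhb8, Pcdhb9, Pcdhb16 and Pcdhga1, where 4.06% of all tested genes were called. Without the second, 19 of 20 tested Pcdhb members were still below 0 and the summed Pcdhb log2 ratio was -0.40.

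Members of Pcdhg did not share a direction in this comparison, with 11 of 22 above and 11 below 0 and a median of -0.04. Pcdhga1, the first gene of the cluster, had 130.1 and 106 CPM in NC and 82.2 and 63.4 CPM in KD-Nap1l2 (log2 fold change -0.70, SE 0.16, adjusted p = 0.142 by edgeR, 0.0175 by DESeq2). Pcdhga3, another A-type gene, had 6.63 and 5.81 CPM in NC and 12.6 and 10.3 CPM in KD-Nap1l2 (log2 fold change 0.88, SE 0.23, adjusted p = 0.163 by edgeR). Pcdhga4, the member with the highest fitted value, had 5.52 and 4.97 CPM against 10.2 and 10.2 CPM (log2 fold change 0.96, SE 0.45, adjusted p = 0.403 by edgeR), and Pcdhga9 was next with 0.945 and 1.81 CPM against 2.78 and 2.31 CPM. The groups were separate for all 4 genes, lower for Pcdhga1 and higher for the others. The lowest fitted value of the family, -1.84 for Pcdhga10, rests on 0 to 20.2 counts a library, with 0.376 and 1.04 CPM against 0.370 and 0 CPM. For Pcdhgc3 the log2 fold change was -0.26 (SE 0.16, adjusted p = 0.525 by edgeR).

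**Figure D3:**
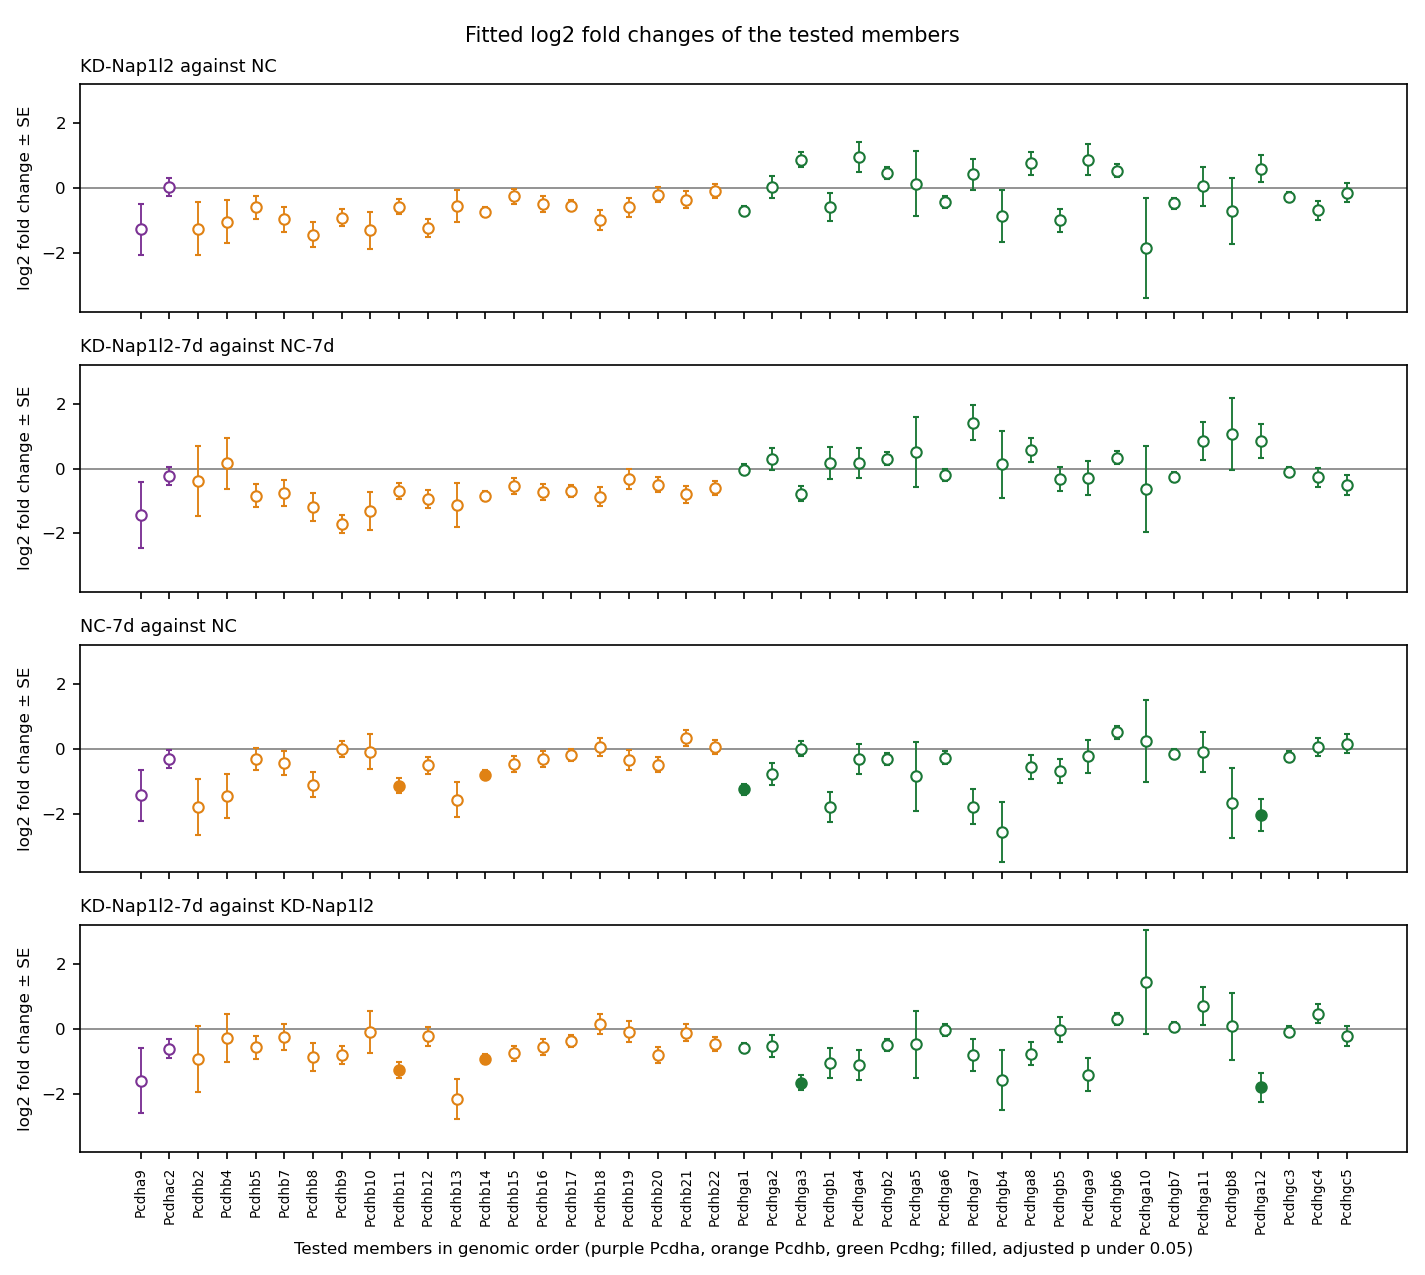
Fitted log2 fold change ± SE of the 43 tested members in genomic order for the 4 comparisons, with Pcdha in purple, Pcdhb in orange and Pcdhg in green, and filled points for an adjusted p-value under 0.05. The Pcdhb points lie below 0 in nearly every place of both KD-Nap1l2 panels with none filled, the Pcdhg points lie on both sides, and 4 points are filled in each induction panel.

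After 7 days of induction, KD-Nap1l2-7d was set against NC-7d. The Pcdhb members were again the lower group, with 18 of 19 tested members below 0, where 50.9% of all tested genes were, and a median log2 fold change of -0.76 beside -0.01 over all genes. In 17 of the 19, both KD-Nap1l2-7d libraries lay below both NC-7d libraries, beside 21% of all tested genes. By edgeR, 0 members and 0% of all tested genes passed the adjusted threshold, and 12 members were lower and 1 higher at an unadjusted p-value under 0.05, beside 4.13% and 3.72% of all tested genes. DESeq2 called 2 members, Pcdhb9 and Pcdhb14, and 0.577% of its genes. The summed Pcdhb level was 43.0% lower, and its log2 ratio of -0.81 was larger than the spread of 0.09 between libraries.

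Pcdhb9 had the largest difference, with 13.2 and 15.3 CPM in NC-7d and 3.93 and 4.83 CPM in KD-Nap1l2-7d. Its log2 fold change was -1.71 (SE 0.27, adjusted p = 0.443 by edgeR, 0.000222 by DESeq2), and the groups were separate. Pcdhb14 had 19.2 and 19.2 CPM against 10.2 and 11 CPM (log2 fold change -0.85, SE 0.16, adjusted p = 0.443 by edgeR, 0.0311 by DESeq2). Pcdhb16 had 28.5 and 29.8 CPM against 18 and 17.1 CPM, and Pcdhb17 had 18.9 and 21.2 CPM against 10.9 and 13.9 CPM. Their log2 fold changes were -0.73 (SE 0.25, adjusted p = 0.544 by edgeR) and -0.69 (SE 0.18, adjusted p = 0.495 by edgeR). In all 4 genes the groups were separate. The 1 tested Pcdhb member above 0 was Pcdhb4, which averaged 0.13 FPKM.

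Of the 22 Pcdhg members, 12 were above and 10 below 0 in KD-Nap1l2-7d, with a median of 0.15, and the summed Pcdhg level was 7.34% lower. Pcdhga3, which was higher in KD-Nap1l2 before induction, was lower after it, with 5.95 and 6.53 CPM in NC-7d and 3.15 and 4.14 CPM in KD-Nap1l2-7d (log2 fold change -0.78, SE 0.24, adjusted p = 0.519 by edgeR). Pcdhga1 was close in both groups, at 52.2 and 46.8 CPM against 49.8 and 46.6 CPM. The highest fitted values were those of Pcdhga7, with 0.466 and 1.03 CPM against 1.24 and 2.89 CPM (log2 fold change 1.41, SE 0.54, adjusted p = 0.578 by edgeR), and of Pcdhgb8, with 1.87 and 0 CPM against 0.973 and 2.84 CPM, where the groups overlapped. Pcdhgc3 had 899.5 and 842 CPM against 828 and 787 CPM (log2 fold change -0.11, SE 0.16, adjusted p = 0.934 by edgeR). Among Pcdha members, Pcdha9 had 0.298 and 0.619 CPM against 0 and 0.330 CPM, and Pcdhac2 had 8.15 and 9.68 CPM against 8.46 and 6.77 CPM, and in both the groups overlapped.

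The family was then compared before and after 7 days of osteogenic induction within each kind of cell. No group was kept for 7 days without osteogenic medium, so the medium and the further days of culture cannot be told apart. In control cells, 4 members fell in NC-7d against NC, Pcdhga1, Pcdhb14, Pcdhb11 and Pcdhga12, and 0 rose, where 3.38% of all tested genes were called lower, 4.83% higher and 8.21% in either direction. At an unadjusted p-value under 0.05, 10 members were lower and 1 higher, beside 11.6% and 12.9% of all tested genes. Below 0 were 35 of the 43 tested members, beside 50.4% of all tested genes, and the median was -0.35 beside -0.0035 over all genes. In 27 members both NC-7d libraries lay below both NC libraries, beside 28.3% of all tested genes, and in 3 they lay above, beside 29.4%. The summed level was 23.6% lower for Pcdhb and 19.1% lower for Pcdhg, with log2 ratios of -0.39 and -0.31 beside spreads of 0.10 and 0.08.

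Pcdhga1 fell from 130.1 and 106 CPM to 52.2 and 46.8 CPM. The log2 fold change was -1.25 (SE 0.17, adjusted p = 0.00605 by edgeR), and over the alternatives its adjusted p ran from 1.75e-08 to 0.0587, the latter without the first NC library. Pcdhb14 fell from 37.3 and 29.4 CPM to 19.2 and 19.2 CPM (log2 fold change -0.80, SE 0.15, adjusted p = 0.0208 by edgeR), and Pcdhb11 from 12.0 and 8.81 CPM to 4.44 and 4.99 CPM (log2 fold change -1.14, SE 0.23, adjusted p = 0.0269 by edgeR). In all of these the NC values were both above the NC-7d values. Pcdhga12, the last A-type gene of the cluster, fell from 1.36 and 3.05 CPM to 0.587 and 0.483 CPM (log2 fold change -2.04, SE 0.49, adjusted p = 0.0434 by edgeR), and its call was lost in a fit of only these 4 libraries, with the replicate number as a block (adjusted p = 0.0702 by edgeR), under both limma settings and without any 1 library other than those of KD-Nap1l2. Pcdhb14 and Pcdhb11 lost their calls in a fit of only these 4 libraries and without the first NC library or any library of the 7-day groups, with adjusted p-values up to 0.161 and 0.195 for the libraries compared.

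The lowest fitted value in this comparison was that of Pcdhgb4, with 3.33 and 3.34 CPM in NC and 0.640 and 0.495 CPM in NC-7d (log2 fold change -2.57, SE 0.92, adjusted p = 0.135 by edgeR). Pcdhgb6 had the highest, with 6.68 and 5.98 CPM against 8.33 and 9.62 CPM (log2 fold change 0.50, SE 0.20, adjusted p = 0.165 by edgeR), and it was also above the NC values in both KD-Nap1l2 libraries, at 10.1 and 8.41 CPM. Pcdhb21 was next, with 3.63 and 3.82 CPM against 5.34 and 4.05 CPM. Pcdhgc3 had 1024 and 1039 CPM against 899.5 and 842 CPM (log2 fold change -0.24, SE 0.16, adjusted p = 0.394 by edgeR). Since Pcdhgc3 makes up most of the Pcdhg sum, the log2 ratio of the sum without it was larger, at -0.48. The A-type sum was 41.2% lower, the B-type sum 13.8% lower and the C-type sum 15.1% lower, and the A-type sum without Pcdhga1 was 22.6% lower. By members, the median log2 fold change was -0.44 over 12 A-type genes and -0.69 over 7 B-type genes. Lower without overlap were 6 genes of each type, beside 28.3% of all tested genes. Some of these B-type genes had few counts, with 10.9 and 9.43 in NC-7d for Pcdhgb4 and 32.0 and 0 for Pcdhgb8. Pcdhgc4 and Pcdhgc5 had 6.66 and 8.75 CPM and 14.0 and 13.6 CPM in NC and 8.57 and 7.39 CPM and 15.1 and 15.5 CPM in NC-7d.

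In the cells labelled with the shRNA, 4 members fell in KD-Nap1l2-7d against KD-Nap1l2, Pcdhga3, Pcdhb14, Pcdhb11 and Pcdhga12, and 0 rose, where 7.36% of all tested genes were called lower, 6.84% higher and 14.2% in either direction. At an unadjusted p-value under 0.05, 12 members were lower and 0 higher, beside 16.1% and 15.3% of all tested genes. Below 0 were 36 of 43, beside 50.7% of all tested genes, with a median of -0.54 beside -0.01 over all genes, and 24 were lower and 3 higher without overlap, beside 30.6% and 30.8%. The summed Pcdhb level was 34.5% lower, a log2 ratio of -0.61 beside a spread of 0.29. It was -0.40 without the first KD-Nap1l2 library, when 14 of 20 tested Pcdhb members were below 0 with a median of -0.21. The summed Pcdhg libraries overlapped between these groups.

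Pcdhga3 fell from 12.6 and 10.3 CPM to 3.15 and 4.14 CPM, with a log2 fold change of -1.66 (SE 0.24, adjusted p = 0.00535 by edgeR). Its adjusted p ran from 6.81e-06 to 0.0638 over the alternatives, the latter without the first KD-Nap1l2-7d library. Pcdhb14 fell from 20.5 and 20.1 CPM to 10.2 and 11 CPM (log2 fold change -0.93, SE 0.16, adjusted p = 0.0102 by edgeR). Pcdhb11 fell from 7.63 and 6.49 CPM to 2.80 and 3.04 CPM (log2 fold change -1.27, SE 0.24, adjusted p = 0.0154 by edgeR). Pcdhga12 fell from 3.88 and 2.78 CPM to 1.06 and 0.875 CPM (log2 fold change -1.80, SE 0.45, adjusted p = 0.0366 by edgeR). In these 4 genes the groups were separate. Without either KD-Nap1l2-7d library the calls of Pcdhb14 and Pcdhb11 were lost, with adjusted p-values up to 0.0969 and 0.124, and that of Pcdhga12 was lost without any 1 of the 4 libraries, with the replicate number as a block (adjusted p = 0.0548 by edgeR) and under both limma settings.

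Pcdhb13 had the lowest fitted value here, with 0.587 and 1.5 CPM against 0.277 and 0.173 CPM (log2 fold change -2.17, SE 0.62, adjusted p = 0.0556 by edgeR). Pcdhga10, with 0.370 and 0 CPM against 0.492 and 0.581 CPM, and Pcdhga11, with 1.57 and 0.615 CPM against 1.07 and 2.47 CPM, had the highest fitted values, and Pcdhga11 changed sign without the second KD-Nap1l2-7d library. Pcdhga1 had 82.2 and 63.4 CPM against 49.8 and 46.6 CPM (log2 fold change -0.59, SE 0.17, adjusted p = 0.0508 by edgeR). It was called lower by DESeq2 (adjusted p = 0.0199), with the replicate number as a block (adjusted p = 0.0287 by edgeR), with RLE size factors, with either other filter and without the second KD-Nap1l2 library.

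**Figure D4:**
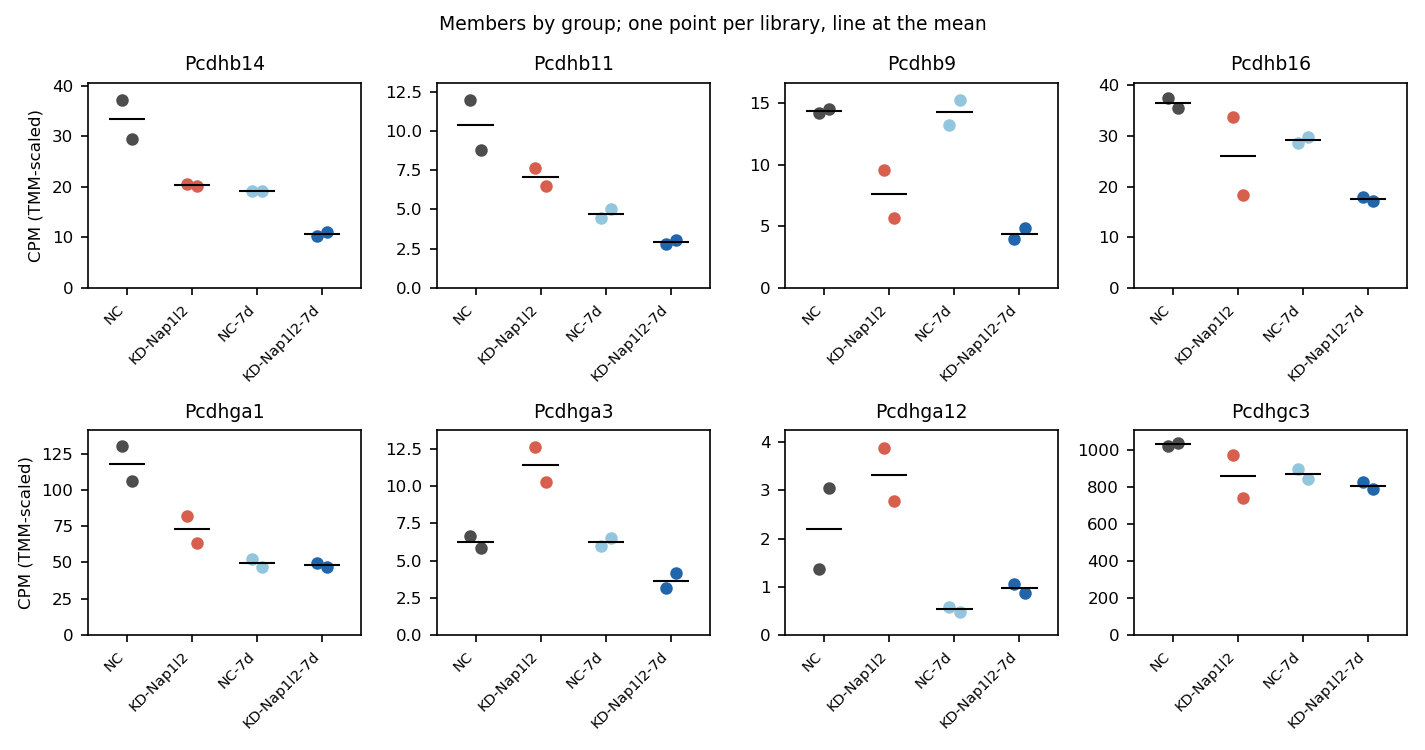
CPM of 8 members in the 4 groups, with 1 point per library and a line at the group mean; each axis starts at 0. Pcdhb14 and Pcdhb11 are highest in NC and lowest in KD-Nap1l2-7d, Pcdhb9 is low in the shRNA groups at both times, Pcdhga1 is highest in NC, and Pcdhga3 is highest in KD-Nap1l2 and lowest in KD-Nap1l2-7d.

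Whether induction acted differently in the 2 kinds of cells was tested as the difference of the induction changes, KD-Nap1l2-7d against KD-Nap1l2 minus NC-7d against NC. By edgeR 0 members and 0% of all tested genes were called, with 1 member lower and 1 higher at an unadjusted p-value under 0.05, beside 3.54% and 3.5% of all tested genes. Of the 43, 21 were below 0, beside 52.2% of all tested genes, and the median over the 43 was 0.11 beside -0.02 over all genes. DESeq2 called 1 member, Pcdhga3, and 0.759% of its genes. For Pcdhga3 the difference was -1.66 on the log2 scale (SE 0.33, adjusted p = 0.403 by edgeR, 0.0346 by DESeq2). For Pcdhga1 it was 0.66 (SE 0.23, adjusted p = 0.680 by edgeR). The largest fitted differences beside Pcdhga3, of Pcdhgb8 (1.76, SE 1.49), Pcdhga10 (1.20, SE 2.05) and Pcdhga9 (-1.19, SE 0.71), had adjusted p-values of 0.775 to 0.922 by edgeR, and Pcdhgb8 had 1 library and Pcdhga10 had 2 libraries at 0 counts.

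The order of the 8 libraries was also compared. In 11 of 19 tested Pcdhb members both KD-Nap1l2-7d libraries were the lowest of the 8, beside 8.86% of all tested genes, and in 1 of 22 Pcdhg members. Both NC libraries were the highest of the 8 in 11 Pcdhb members and 7 Pcdhg members, beside 8.33% of all tested genes.

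**Figure D5:**
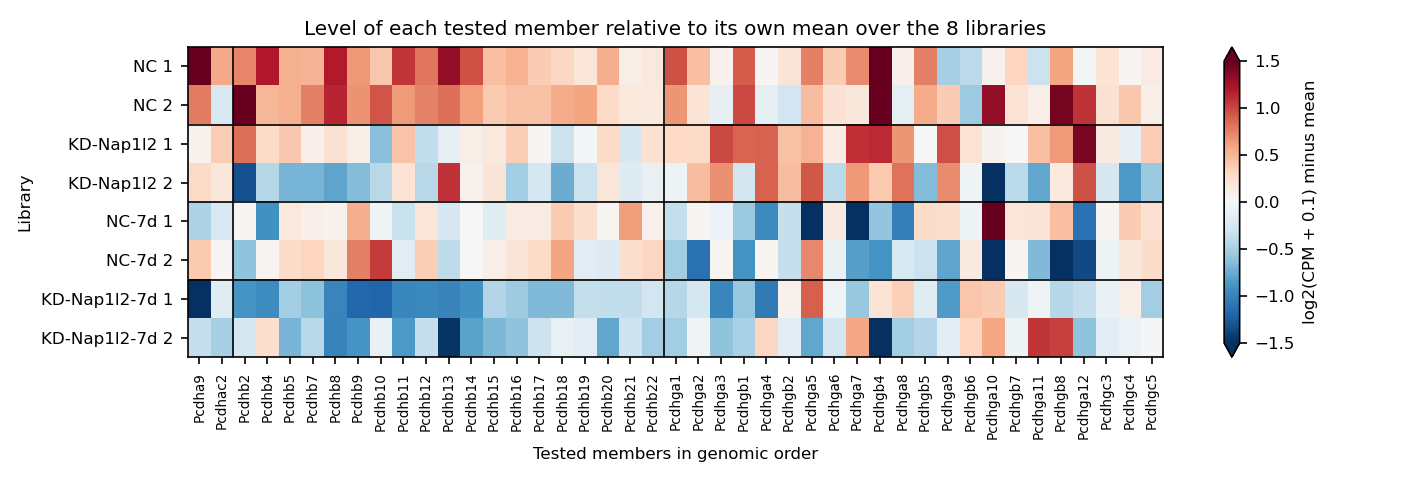
log2(CPM + 0.1) of each of the 43 tested members minus its own mean over the 8 libraries, with libraries as rows by group and members as columns in genomic order; red is above and blue below the member's mean. The Pcdhb block is red in both NC rows and mostly blue in both KD-Nap1l2-7d rows, with Pcdhb4 an exception in the second, and the Pcdhg block is mixed from column to column.

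RNA of factors for promoter choice, silencing and DNA methylation was also compared. Of 12 genes for CTCF, cohesin and its loaders, all tested, 0 were called by edgeR in any of the 5 comparisons, and only Rad21, a cohesin subunit, had an unadjusted p-value under 0.05 in any, after induction in shRNA cells. Its log2 fold change there was -0.37 (SE 0.14, adjusted p = 0.112 by edgeR), and in KD-Nap1l2 against NC it was 0.25 (SE 0.14, adjusted p = 0.475 by edgeR). In NC-7d against NC the farthest from 0 was Pds5b, a cohesin regulator, at -0.23 (SE 0.13). Ctcf itself lay between 66.4 and 90.6 CPM in all libraries. Among 16 silencing and DNA methylation factors, Tet1, an enzyme that oxidises methylcytosine, fell with induction in control cells (log2 fold change -1.24, adjusted p = 0.0339 by edgeR) and in shRNA cells (-2.25, adjusted p = 0.00373 by edgeR). Dnmt3a, a de novo DNA methyltransferase, fell in shRNA cells (-1.10, adjusted p = 0.0143 by edgeR), and the other 14 were not called in any comparison. These 16 factors include Tet1, Tet2 and Tet3 and so do not all act to silence. In shRNA cells 14 of the 16 were below 0 after induction. Of the 16, 7 had an unadjusted p-value under 0.05, beside 31.4% of all tested genes, and the 2 called lower stand beside the 7.36% given above. In control cells 9 of 16 were below 0 and 4 had an unadjusted p-value under 0.05, beside 24.5% of all tested genes. In KD-Nap1l2-7d against NC-7d 14 of 16 were below 0, and in KD-Nap1l2 against NC 3 of 16.

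Other cadherins were also compared. Beside the induction calls that follow, 3.38% of all tested genes were called lower and 4.83% higher in control cells. In shRNA cells these shares were 7.36% and 6.84%. Of 12 non-clustered protocadherins 6 could be tested, and 2 fell in both induction comparisons. Pcdh18 had 193 and 136 CPM in NC, 148 and 149 CPM in KD-Nap1l2, 50.2 and 78.3 CPM in NC-7d and 45.6 and 47.8 CPM in KD-Nap1l2-7d (log2 fold changes -1.35 and -1.67, adjusted p = 0.0143 and 0.00531 by edgeR), and Pcdh7 followed it with log2 fold changes of -0.99 and -0.79. Among 9 tested classical cadherins and catenins, Cdh11, the mesenchymal cadherin, fell in both (-1.29 and -1.10), as did Cdh1 (-1.33 and -1.41) and Ctnnd1, p120 catenin (-0.70 and -0.80). Cdh1 was low, at 0.845 FPKM on average, beside 105 FPKM for Cdh11 and 146 FPKM for Ctnnd1. Of 5 tested Fat, Dachsous and Celsr cadherins, Fat4 fell in shRNA cells (-0.85). Among 19 cytoplasmic partners and proteases, Psen2, a subunit of the γ-secretase that can cut protocadherin tails, rose in both (0.72 and 0.69), Wasf1 rose in control cells (1.07) and Abi2, a subunit of the same WAVE complex as Wasf1, fell in shRNA cells (-0.59). In the 2 comparisons of shRNA with control, 0 genes of these lists were called by edgeR. At an unadjusted p-value under 0.05 the counts before and after induction were 4 and 1 for partners and proteases and 2 and 1 for classical cadherins and catenins. They were 1 and 0 for non-clustered protocadherins, 0 and 1 for Fat, Dachsous and Celsr cadherins, and 1 and 1 for silencing and DNA methylation factors. Of all tested genes, 13.7% and 7.85% were under that value. Among the cell type markers, Col3a1, Thy1, Gap43 and Erg fell in both induction comparisons, and Col1a1, Col1a2, Gfap, Slc1a3 and Tek fell in shRNA cells. Gap43 and Erg were low, at 0.69 and 0.165 FPKM on average.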

How the data were processed

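RNA-seq of C3H10T1/2 cells was used in 4 groups of 2 libraries, grouped by their labels. The authors deposited estimated counts per gene and per transcript, not normalized, and FPKM values, which scale reads to transcript length and library size. The submitters' processing notes name BWA, Bowtie2, RSEM and GRCm38.p6, without versions or roles. Read length and strand are not given in the sources used here. The authors' tables of their own comparisons, which hold fold changes and p-values, were not used.

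Estimated counts were rounded, scaled by TMM and filtered with filterByExpr, which kept 13470 of 18605 genes. All 8 libraries (17420284 to 19427359 counts) were fitted in one model with edgeR 4.0.16 in R 4.3.3. The quasi-likelihood test was applied to 5 comparisons, and p-values were adjusted over all genes tested by Benjamini-Hochberg with a threshold of 0.05. An SE was taken as the absolute log2 fold change over the root of its F value. A count of 0 allows up to 3 counts, which is 0.154 to 0.176 CPM, and covers counting error only. The spread beside a log2 ratio of sums is the root of the summed variances of the log2 values in both groups. Groups were called separate where the CPM of all libraries of one lay above all of the other. On simulated data with 13289 genes for KD-Nap1l2 against NC, the test recovered 87 of the 98 genes with a 4-fold change and 46 of the 99 with a 2-fold change, and it made 15 false calls and 0 calls in a comparison with no changed genes. DESeq2 recovered 87 of 100 and 62 of 100 among 13470 genes, with 40 false calls and 5 calls where no gene was changed.

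Unique sequence was counted with Python 3.11.15 in windows of 50 and 100 bases of GENCODE vM21 transcripts, and figures were drawn with matplotlib 3.10.9. Alternatives were RLE size factors, DESeq2 1.42.0, no filter, at least 10 counts in every library, a replicate block, only the libraries compared, limma 3.58.1 on log2(FPKM + 1) and log2(FPKM + 0.1), and leaving out each library. Leaving out Pcdhgc3 or Pcdhga1 from sums, leaving out libraries of groups not compared, and counting Pcdhb directions under each alternative were chosen after seeing the data.

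The members and the 12 gene lists were chosen with earlier results of these data known. Named members are those called in any comparison, the C-type genes, the 3 highest by FPKM in each cluster, and the 2 highest and 2 lowest log2 fold changes in each comparison. Named list genes are those called and those with the largest log2 fold changes, and 1 called list gene is not reported here. Pcdhb12, and values of members in comparisons outside this rule, were chosen after their values were seen. Sequences of members are not reported here.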

Additional observations from a re-analysis of the deposited data

How the results depend on the processing

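With 2 libraries per group, single calls depended on the test and on single libraries. DESeq2 called 2 members where edgeR called 0 in both comparisons of shRNA with control, and 1 in the difference of the induction changes. In NC-7d against NC, 2 members were called instead of 4 when only the libraries compared were fitted. The shares of all tested genes called are not given beside these counts and those below. A changed count is therefore not a result about the family. Without single libraries of the groups compared, the median log2 fold change of the tested members was -0.72 to -0.32 in KD-Nap1l2 against NC. It was -0.52 to -0.41 in NC-7d against NC and -0.64 to -0.25 in KD-Nap1l2-7d against KD-Nap1l2. The number of members called also changed in these comparisons. Leaving out libraries of the other groups gave 5 members without either KD-Nap1l2 library and 2 without either KD-Nap1l2-7d library in NC-7d against NC, and the same number as with all libraries in the other comparisons. The median log2 fold change was -0.19 (KD-Nap1l2) and -0.11 (KD-Nap1l2-7d) by limma on log2(FPKM + 1), which understates changes of low genes, and -0.60 to -0.33 without single libraries in KD-Nap1l2-7d against NC-7d. The summed Pcdhg log2 ratio in NC-7d against NC was -0.48 without Pcdhgc3. Pcdhga11 in KD-Nap1l2-7d against KD-Nap1l2 ranged from -0.00056 to 1.49 without single libraries and reversed without the second KD-Nap1l2-7d library. The cause of these shifts was not tested. No strong pairing of the libraries by replicate number was seen, since deviations of same-numbered libraries correlated between -0.061 and 0.104 over the tested genes. A weaker shared deviation could not be detected this way. With the replicate number as a block, 0, 0, 3 and 5 members were called in the 4 comparisons, and Pcdhga12 lost its call in both induction comparisons. The summed Pcdhb log2 ratio was then -0.60 in KD-Nap1l2 against NC and -0.81 in KD-Nap1l2-7d against NC-7d. Counts of tested Pcdhb members below 0 ranged without single libraries from 19 to 20 in KD-Nap1l2 and from 18 to 20 in KD-Nap1l2-7d. Members under 1 FPKM, 24 of the 48, had few counts, and their fitted values are limited by depth.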
